A study of Labeotropheus fuelleborni x Mchenga conophoros and Petrotilapia nigra x Mchenga conophoros and Petrotilapia nigra x Aulonocara baenschi with 10 samples.

Results

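Transcription factors are proteins that bind particular DNA sequences and raise or lower the transcription of nearby genes. Zinc fingers are small protein folds held together by a zinc ion. Fingers of the C2H2 type mostly read DNA bases, whereas other kinds bind RNA, ubiquitin or other proteins, so a gene with "zinc finger" in its name need not be a transcription factor. In the brain such regulators set the identity of neurons and glia and alter gene activity after stimulation.

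The 18 genes described here were selected on their annotation and on the contrast between social sand and social rock males. They belong to the 812 genes of the study's list of context-dependent genes for which names were used here, and that list was itself chosen by the difference between social sand and social rock in these libraries. Of those 812 genes, 25 carried the words transcription factor, zinc finger, homeobox, forkhead, SRY-box or nuclear receptor. Of the 25, 3 were left out by name and 4 because every social sand male lay above every social rock male, which left 18 of the 32455 loci counted. By function, 9 are DNA-binding proteins of the C2H2 zinc finger type, 3 belong to other DNA-binding families, 3 are chromatin proteins or cofactors, and 3 carry a zinc finger but act elsewhere in the cell. Values of the sand and rock males therefore describe how the genes were chosen, and where calls for that contrast are counted below the count is a description and no support.

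Whole-brain mRNA was sequenced from 10 adult F1 hybrid males of Lake Malawi cichlids, each with a rock-dwelling father and a sand-dwelling mother. In 4 dyads, 1 brother courted over rock (social rock) and the other built a bower and courted over sand (social sand). The 2 lone males had no rival and courted over rock. Brood 1 came from Petrotilapia nigra and Mchenga conophoros, brood 2 from Petrotilapia nigra and Aulonocara baenschi, brood 3 from Maylandia zebra and Tramitichromis intermedius, and brood 4 from Labeotropheus fuelleborni and Mchenga conophoros, with the father's species first. One lone male shared the cross of brood 4 and is taken here as a brother of that brood. The other was the single male of brood 5, from Maylandia zebra and Mchenga conophoros. The sample labels give the cross only and broods were numbered by it, so cross and brood cannot be told apart. By the study's discussion, the larger brother courted over rock in every dyad, so context and body size cannot be told apart either.

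Depth moved with context. Total counts ran from 206320 to 335551 in social sand, from 492489 to 694114 in social rock, and were 375132 and 457974 in the lone males. Marker genes of brain cell types were also lower in social sand, all 12 of them drawn from the same list and so no independent evidence. The summed level of 4 neuron markers was 630 to 1435 CPM (counts scaled to a common library total) in social sand, 1931 to 3752 in social rock and 3176 to 3814 in lone males. For 5 astrocyte and radial glia markers the ranges were 806 to 1228, 1926 to 4960 and 3519 to 3804 CPM, and for 2 markers of myelinating cells they were 436 to 872, 1418 to 3295 and 2464 to 3187 CPM. The 1 endothelial marker had too few counts to be tested. It had 0 to 4.36 CPM in social sand, 8.69 to 23.0 in social rock and 19.5 to 21.3 in lone males. In whole-brain RNA, fewer cells of a type and less RNA per cell cannot be told apart, and the part of these markers and of depth in the levels below was not tested. Composition differed by brood as well. The most abundant locus of a library held 1.58% and 2.28% of counts in the brood 4 rock and sand males. In the other dyad males that share was 11.6% to 16.7%. The lone males had 5.1% (brood 4) and 10.35% (brood 5), so brood 4 was not uniform. The part of this share in the levels was not tested.

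The genes were mostly of low abundance, and 10 of the 18 passed the count minimum used for testing. That minimum is 10 counts scaled to the median library total, in at least as many libraries as the smallest group held. A gene with 10 raw counts in a deeper library can thus fall below it. Of the 18, 17 were lower in the sand brother than in the rock brother in all 4 dyads, and in 15 every sand male lay below every rock male. Among the 10 testable genes this held for 8, beside 8.97% of all 7733 genes tested. That separation follows from how the genes were chosen, and nothing is read from it.

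**Figure D1:**
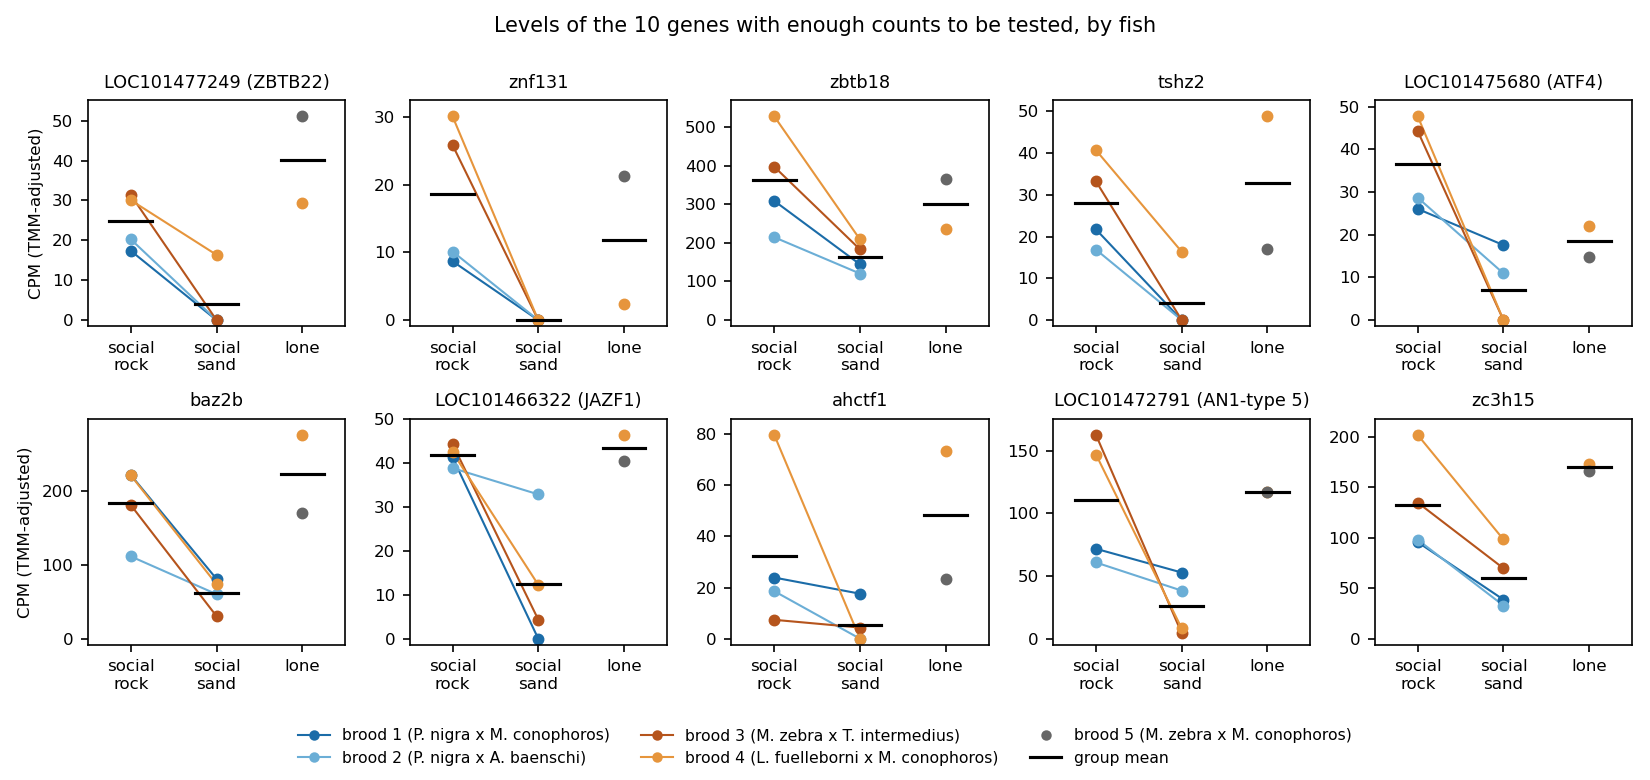
CPM (scaled by TMM) of the 10 genes with enough counts to be tested, with 1 point per fish coloured by brood, lines joining dyad brothers and black bars at group means. All lines run downward from social rock to social sand, and znf131 has 0 counts in all 4 sand males.

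The C2H2 gene with the most counts was zbtb18 (gene14446), a repressor that in mice is needed for the differentiation of cortical neurons. Its level in the social rock males of broods 1 to 4 was 308, 214, 397 and 527 CPM, and in their sand brothers 144, 120, 183 and 209 CPM. The groups did not overlap, and each sand male had 39.6% to 56.2% of his brother's level. The means were 362 ± 133 and 164 ± 39.4 CPM (SD, n = 4 each), a 2.20-fold difference that rests on 782 counts in rock and 156 in sand, where the rock rate would give 341. The broods stood in the same order in both contexts, with brood 2 lowest and brood 4 highest. Over all genes tested, the brood 4 rock male was the highest rock male in 40.2%. The lone males had 237 CPM (brood 4) and 366 CPM (brood 5), both above all sand males and inside the rock range.

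For znf131 (gene13643), a BTB zinc finger gene, the rock males had 8.69, 10.1, 25.8 and 30.1 CPM and no sand male had a count. The rock rate would have given 17.9 counts over the 4 sand libraries. Setting the sand group's pooled count to a floor of 3, its level was at least 5.95-fold lower than in social rock, and the same floor is used for each such bound here. Such a bound allows for counting error in the sand libraries only. It leaves out the error of the rock counts and the spread between fish. The lone male of brood 4 stood apart from his rock brother, with 2.44 CPM (1 count) against 30.1 (17 counts). The lone male of brood 5 had 21.3 CPM (10 counts).

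ZBTB22 (LOC101477249, gene22875), another member of the BTB zinc finger family, and tshz2 (gene21940), a teashirt-family zinc finger gene with a homeobox, showed the same distribution over the sand males. ZBTB22 had 17.4, 20.3, 31.4 and 30.1 CPM in the rock males and 0, 0, 0 and 16.4 CPM in the sand males. The tshz2 values were 21.7, 16.9, 33.2 and 40.7 CPM in rock and 0, 0, 0 and 16.4 CPM in sand. In both genes the brood 4 sand male alone had counts, 4 in each case. The lone males lay above all sand males in both, with 29.3 (brood 4) and 51.1 CPM (brood 5) for ZBTB22 and 48.8 and 17.0 CPM for tshz2.

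The other 5 C2H2 genes were below the count minimum, and only raw counts are given. ZNF646 (LOC101482975, gene3431) had 10, 4, 5 and 10 counts in the rock males, 0 in each sand male, and 8 and 11 in the lone males. The rock rate would have given 12.6 counts in sand, and the level there was at least 4.21-fold lower. The counts of znf319 (gene937) were 10, 5, 6 and 14 in rock, 0 in all sand males, and 2 and 8 in the lone males, a level at least 5.08-fold lower in sand. ZFY1 (LOC101469595, gene11071), named for the mammalian Y-linked zinc finger activator, had 4, 6, 11 and 6 counts in rock and 0, 0, 0 and 2 in sand, where 11.8 would be had at the rock rate. Its lone males had 7 and 10 counts.

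The counts of sp3 (gene17935), whose protein binds GC boxes in many promoters through C2H2 fingers, were 7, 3, 4 and 11 in rock, 0, 0, 0 and 1 in sand, and 13 and 9 in the lone males. At the rock rate the sand libraries would have held 10.9 counts. The sand male with a count was again that of brood 4, as for ZBTB22, tshz2 and ZFY1.

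OZF (LOC101481887, gene10078), a protein made up almost wholly of zinc fingers, went the other way and was kept only because 1 sand male tied with the rock males. It had 0 counts in every rock and lone male and 0, 2, 1 and 2 in the sand males. The genes just outside that criterion, all higher in sand, included a ROR-gamma-like nuclear receptor (LOC112430645) with 0, 2, 2 and 2 counts in rock and 5, 2, 4 and 7 in sand. Transcription factor IIIA (LOC101483560), which is needed to transcribe 5S ribosomal RNA genes, ran from 68.3 to 99.9 CPM in rock and from 123 to 233 CPM in sand. The ranges were 113 to 221 and 323 to 394 CPM for zdhhc6, a palmitoyltransferase gene, and 182 to 340 and 417 to 624 CPM for zbtb3.

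**Figure D2:**
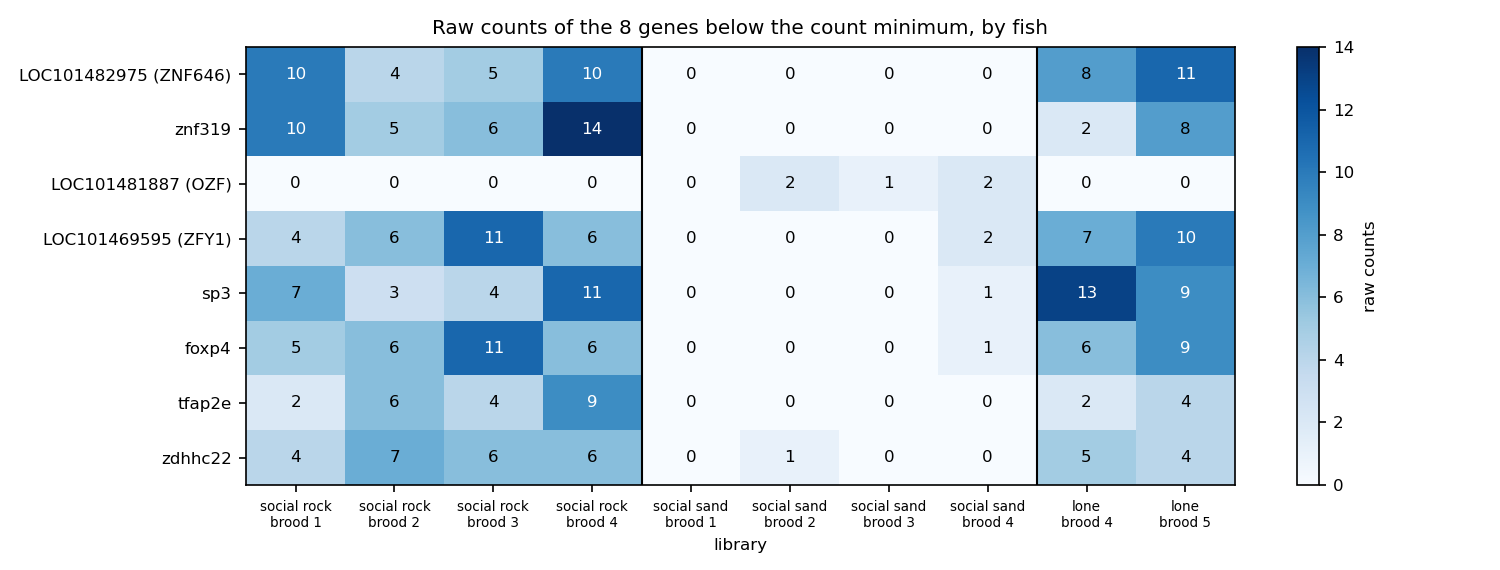
Raw counts of the 8 genes below the count minimum, with 1 row per gene and 1 column per library, grouped as social rock, social sand and lone. Sand libraries hold at most 2 counts of any of these genes, while OZF has counts in sand males only.

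The 3 genes of other DNA-binding families were lower in each sand male than in his rock brother. ATF4 (LOC101475680, gene3638), a leucine zipper factor of the integrated stress response, had 26.1, 28.7, 44.3 and 47.8 CPM in the rock males and 17.6, 10.9, 0 and 0 CPM in the sand males. The 2 sand males with counts were the sons of Petrotilapia nigra, with 67.5% and 38.2% of their brothers' levels. These percentages rest on 5 and 2 sand counts. ATF4 was also the one gene whose lone males both lay below the whole rock range, at 21.96 (brood 4) and 14.9 CPM (brood 5), the latter inside the sand range.

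For the other members of this group only raw counts are given. The counts of foxp4 (gene4976), a forkhead repressor, were 5, 6, 11 and 6 in rock, 0, 0, 0 and 1 in sand, and 6 and 9 in the lone males. For tfap2e (gene22919), an AP-2 factor that in mice acts in olfactory neurons, they were 2, 6, 4 and 9 in rock, 0 in every sand male, and 2 and 4 in the lone males. At the rock rate the sand libraries would have held 12.2 counts of foxp4 and 9.15 of tfap2e, and tfap2e was at least 3.05-fold lower in sand.

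Among the chromatin genes, baz2b (gene671), which encodes a bromodomain protein of ISWI-type chromatin remodelling complexes, was measured with the most counts. It had 222, 111, 181 and 221 CPM in the rock males and 80.9, 60.2, 30.5 and 73.7 CPM in the sand males. No sand male reached the lowest rock male, and each had 16.9% to 54.1% of his brother's level. The means were 184 ± 51.9 and 61.3 ± 22.3 CPM (SD, n = 4 each). The lone males had 276 (brood 4) and 170 CPM (brood 5).

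JAZF1 (LOC101466322, gene23418), a zinc finger cofactor of a nuclear receptor, was even among the rock males, with 41.3, 38.8, 44.3 and 42.5 CPM. Their SD of 2.29 CPM was below the 8.83 CPM that counting alone would give. The sand males had 0, 32.8, 4.36 and 12.3 CPM, from 0, 6, 1 and 3 counts. Their SD was 14.6 CPM, where counting alone would give 7.89 CPM. The brood 2 male had 84.6% of his brother's level, with 6 counts against 23. The lone males, at 46.4 and 40.4 CPM, stood with the rock males.

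For ahctf1 (gene336), which encodes the nucleoporin ELYS, needed to rebuild nuclear pores after mitosis, the groups overlapped. The rock males had 23.9, 18.6, 7.38 and 79.6 CPM, the sand males 17.6, 0, 4.36 and 0 CPM, and the lone males 73.2 and 23.4 CPM. The sand values rest on 5, 0, 1 and 0 counts. The high values were those of the rock and lone brothers of brood 4, whose sand brother had no count.

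The last 3 genes are not transcription factors by function. LOC101472791 (gene13254) encodes AN1-type zinc finger protein 5, which in mice acts on protein breakdown by the proteasome. Its rock males had 71.7, 60.8, 162 and 147 CPM and its sand males 52.8, 38.3, 4.36 and 8.18 CPM. The sand males of broods 1 and 2 thus had 73.6% and 63.1% of their brothers' levels, and those of broods 3 and 4 had 2.68% and 5.57%. These sand values rest on 15, 7, 1 and 2 counts in broods 1 to 4, so the low percentages are rough. Both lone males had 117 CPM.

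For zc3h15 (gene14343), whose protein binds and stabilises a GTPase linked to translation, the rock males had 95.6, 97.9, 135 and 202 CPM and the sand males 38.7, 32.8, 69.7 and 98.2 CPM. The highest sand male passed the lowest rock males, although each stayed at 33.6% to 51.7% of his brother. The counts of zdhhc22 (gene25558), a palmitoyltransferase gene, were 4, 7, 6 and 6 in rock, 0, 1, 0 and 0 in sand, and 5 and 4 in the lone males.

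**Figure D3:**
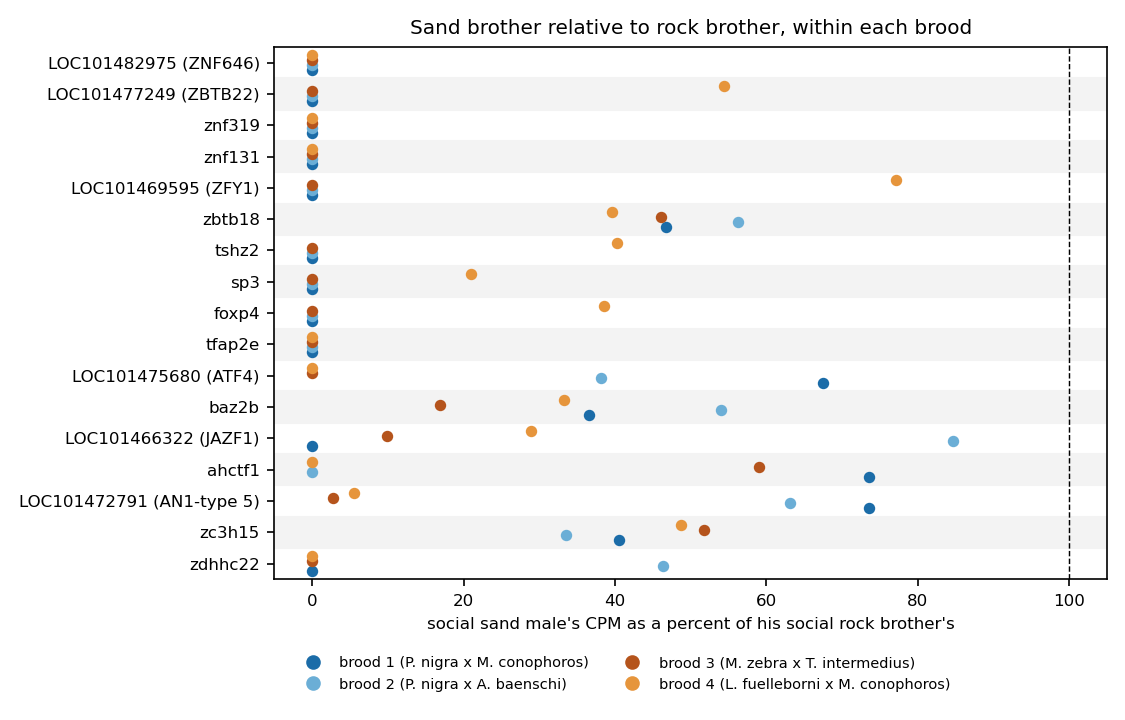
CPM of each social sand male as a percent of his social rock brother's, for the 17 genes with counts in the rock males, coloured by brood, with the dashed line at equal levels. All points lie left of the line, and zbtb18 and zc3h15 are close together across broods. AN1-type zinc finger 5 splits into 2.68% and 5.57%, from 1 and 2 sand counts, against 63.1% and 73.6%.

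By edgeR's quasi-likelihood test over all 7733 genes, with an adjusted p under 0.05 and at least a 2-fold change, 2 of the 10 testable genes (baz2b and AN1-type zinc finger 5) were called lower in social sand, where 3.14% of all genes tested were. As the contrast chose the genes, this count is a description and nothing is read from it. With brothers paired by a brood block the count was 5, with tshz2, zbtb18 and zc3h15 added. It was 0 by limma-voom, 0 without the rock male of brood 3, the rock male of brood 4 or the sand male of brood 3, 1 without either lone male, and 4 without the sand male of brood 4. Calls over all genes, in either direction, were 268 in the main fit and 507 with the block. They were 29 by limma-voom and, without those rock and sand males in the order given, 128, 94 and 89. Without the lone male of brood 4 or of brood 5 they were 214 and 190, and without the sand male of brood 4 they were 269. With all libraries thinned to the smallest total, 2 of the 6 genes then testable were called, beside 249 of 4935 genes.

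The median log2 difference, sand minus rock, was -2.17 over the 10 testable genes and -0.07 over all genes tested. A further 23 transcription and chromatin regulators of the study's list, whose annotation lacks the words used above, were examined beside them. Of the 19 that could be tested, 5 were called lower in social sand and 0 higher, with a median of -2.13. This list too was chosen by the same contrast and is no independent evidence.

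Lone males share a place over rock with the social rock males but met no rival, and lone against social rock is a contrast that did not choose the genes, although the rock libraries did enter their choice. By edgeR's quasi-likelihood test, 0 of the 10 testable genes were called and 0 had an unadjusted p under 0.05, and limma-voom and DESeq2 gave 0 and 0 as well. Over all 7733 genes 0% were called, with 275 genes at an unadjusted p under 0.05. The log2 differences, lone minus rock, ran from -0.99 for ATF4 (95% interval -2.65 to 0.67) to 0.69 for ZBTB22 (-0.91 to 2.30), with a median of 0.15 beside 0.05 for all genes. ATF4 and znf131 (-0.63) passed the count minimum through rock males alone. That favours a lower lone value, so nothing is read from the differences of these genes. For the well-counted genes the intervals were narrower, from -0.55 to 1.11 for baz2b, from -1.04 to 0.52 for zbtb18 and from -0.54 to 1.25 for zc3h15. Every interval extends to 0.52 or more on both sides of 0, so the 2 lone males do not show that levels were alike.

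The lone values were not uniform. Both lone males lay above all sand males in 16 of the 18 genes, the exceptions being OZF and ATF4. Among the 10 testable genes this held for 9, beside 27.1% of all genes tested, and as the sand libraries chose the genes nothing is read from it. Both lay inside the rock range in 6 of the 17 genes with counts in rock males, and in 4 of the 10 testable genes beside 43.6% of all genes. In no gene were both above that range, and in ATF4, which passed the count minimum through rock males alone, both were below. Without the lone male of brood 4 the estimates moved to -0.13 for baz2b, -0.43 for ahctf1 and -0.73 for tshz2. Without the lone male of brood 5 they moved to -2.81 for znf131 and -0.64 for zbtb18. With broods as a block, which leaves the lone male of brood 4 as the only lone male compared, directions turned for ZBTB22 (-0.81), tshz2 (-0.41) and zc3h15 (-0.28), and the values were -3.43 for znf131 and -1.05 for zbtb18. These blocked values rest on 1 lone fish and have no test. The znf131 values of -2.81 and -3.43 both rest on 1 lone count.

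Among genes under the count minimum, sp3 had 22 counts in the lone and 25 in the rock males, a ratio of levels of 2.16 with an interval of 1.16 to 3.99. That interval covers counting error only and not the spread between fish. The ratios of the other low-count genes with counts ran from 0.702 to 1.61, and all of their counting intervals held 1. Some testable genes had counting intervals above 1, at 1.04 to 2.54 for ZBTB22, 1.015 to 1.444 for baz2b and 1.03 to 1.55 for zc3h15. Others lay below 1, at 0.733 to 0.972 for zbtb18 and 0.268 to 0.847 for ATF4, the latter a gene that only its rock males brought past the count minimum. The remaining testable genes had intervals that held 1.

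**Figure D4:**
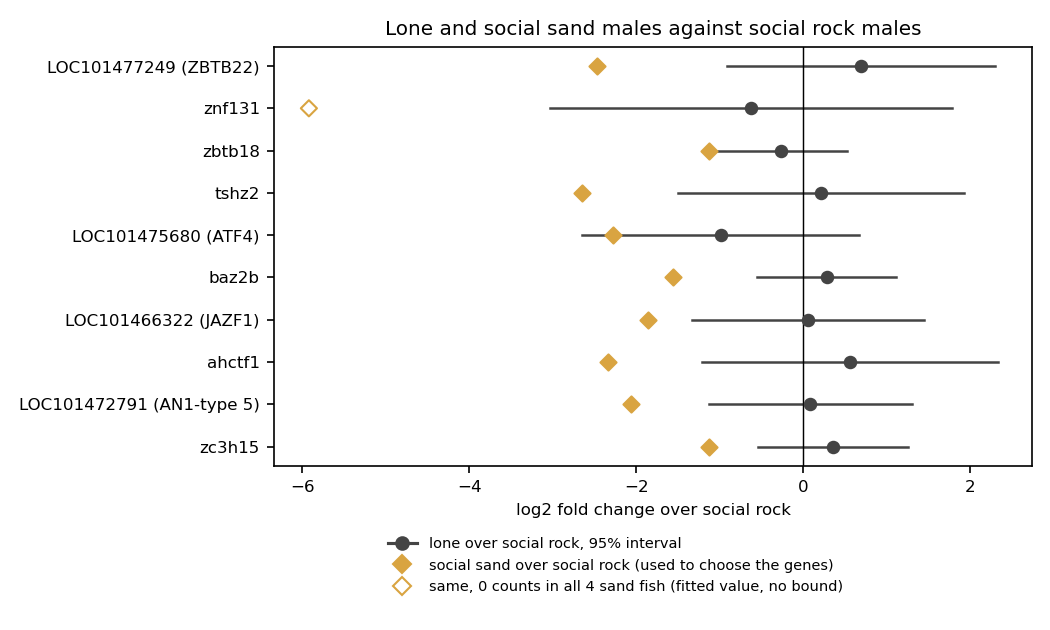
Log2 fold changes over social rock for the 10 testable genes, with lone males as circles with 95% intervals and social sand males as diamonds, hollow where all 4 sand males had 0 counts. Every lone interval includes 0, from -0.99 for ATF4 to 0.69 for ZBTB22.

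Against social sand, 4 of the 10 testable genes were called higher in lone males by edgeR (baz2b, AN1-type zinc finger 5, ZBTB22 and zc3h15), beside 6.96% of all genes. The sand libraries are those that chose the genes, so nothing is read from the count. It was 0 without the lone male of brood 4, 1 without the lone male of brood 5, 1 without the rock or the sand male of brood 3, 2 without the rock male of brood 1, and 1 by limma-voom. Calls over all genes, in either direction, were 656 in the main fit. In those fits, in the same order, they were 140, 133, 485, 337, 532 and 308. With broods as a block, which leaves 1 lone fish, the log2 difference for zbtb18 was 0.05 in place of 0.87. Of the 19 other regulators tested, 12 were called higher in lone males and 0 lower, and against social rock 0 were called.

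Brood 4 gave 3 males of 1 cross, taken here as brothers, which allows the same cross to be read in each setting. Their sample labels give the cross only. For zbtb18 the rock, sand and lone brothers had 527, 209 and 237 CPM, so the lone brother stood near the sand brother. For baz2b they had 221, 73.7 and 276 CPM, and for AN1-type zinc finger 5 they had 147, 8.18 and 117 CPM, so the lone brother stood with the rock brother in both. Each value is 1 fish, with no replicate check, and the 8.18 CPM rest on 2 counts.

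Differences between broods did not choose the genes directly and were tested among the 8 dyad males, with context as a term. The choice used these same libraries, however, and favoured genes with little spread within a context. Few calls here are therefore no independent evidence that the broods were alike. Of the 18 genes, 6 passed the count minimum in these libraries, and 0 were called by edgeR's quasi-likelihood test, with 0 at an unadjusted p under 0.05, beside 1.40% of 4862 genes called. Limma-voom and DESeq2 called 0 as well, with 2 and 1 at an unadjusted p under 0.05. The smallest adjusted p values by edgeR were 0.665 for zc3h15 and 0.740 for zbtb18.

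In both of these genes the broods sired by Petrotilapia nigra (1 and 2) were lower than the other broods in each context. This contrast sets 2 broods against 2, and its fit counts brothers as separate fish, so its standard errors and p values may be too small. The interaction below compares differences between brothers, and its fit left brothers unpaired too. In which direction that moves the standard errors and p values of the interaction was not tested. Fitted after the values were seen, the difference between Petrotilapia nigra and other sires was -0.98 ± 0.34 for zc3h15 (log2, SE, edgeR adjusted p = 0.827) and -0.71 ± 0.27 for zbtb18 (adjusted p = 0.834). Within each context both Petrotilapia nigra sons lay below both other males for these 2 genes. By edgeR 0 of the 6 genes and 0% of all genes were called, with 2 and 253 at an unadjusted p under 0.05. Limma-voom and DESeq2 called 0 of the 6, with 3 and 2 at an unadjusted p under 0.05. Among the rock males alone, both Petrotilapia nigra sons lay below both other males in 9 of the 17 genes with counts in rock males. This held in 8 of the 10 testable genes, beside 23.8% of all genes tested, a description with no test. The rock levels helped choose the genes and helped decide which passed the count minimum, so nothing is read from these counts.

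The size of the sand to rock difference also split by sire in AN1-type zinc finger 5 and ATF4. For the former the interaction of sire and context was 4.03 ± 0.87 (log2, SE, edgeR adjusted p = 0.632). It was added after the values were seen and lay in the direction of a smaller difference in Petrotilapia nigra sons. The sand males of broods 3 and 4 had 1 and 2 counts of this gene. For ATF4 the sand males of broods 1 and 2 had 5 and 2 counts and those of broods 3 and 4 had none. Its fitted value is thus no bound, and its edgeR adjusted p was 0.632. Of the 6 genes 0 were called, as were 0% of all genes, with 2 and 382 at an unadjusted p under 0.05. Limma-voom and DESeq2 also called 0, each with 2 of the 6 at an unadjusted p under 0.05. The medians of the marker lists and of the other regulators had the same sign. They were 1.35 for neurons, 0.98 for astrocytes and radial glia, 0.73 for myelinating cells and 0.95 for the other regulators, beside -0.05 over all genes. By edgeR 3 of 3, 1 of 5, 0 of 2 and 3 of 10 tested were at an unadjusted p under 0.05, and 0 were called. These lists too were chosen by the sand and rock contrast, and their part in this split was not tested.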

How the data were processed

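Brain mRNA of 10 fish was prepared with a stranded kit. The authors filtered and trimmed reads, aligned them to MZ_UMD2a with TopHat 2.0.9, handled alignments with SAMtools 0.19 and counted fragments with HTSeq 0.6.1. The deposited values are these raw counts, 1 column per fish. In the submitters' processing notes edgeR 3.6.8 appears too. Neither the strand setting nor the annotation version is given in the sources used here. The sample labels hold a code for the cross followed by DOM, SUB or LONE. DOM was read as social rock, SUB as social sand and LONE as lone, and broods were numbered by cross.

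Genes were kept by filterByExpr (minimum 10 counts, scaled to the median library total) and normalised by TMM factors. They were compared by the quasi-likelihood test of edgeR 4.0.16 under R 4.3.3 in 1 fit of 3 groups, with Benjamini-Hochberg adjustment over all genes tested. CPM are counts over TMM-adjusted totals. Brood and sire fits used the 8 dyad males. Limma 3.58.1 and DESeq2 1.42.0 were alternatives, with other scalings, filters, thresholds, depth and left-out libraries. Figures used matplotlib 3.10.9. At totals of 206320 to 694114, low counts carry a large counting error.

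Gene names came from the study's supplementary list of 812 genes used here. Every gene kept by the rule is named, as are the 4 left out as higher in sand. The 3 left out by name are not. The genes and lists were chosen with earlier results of these data known. Brothers share a brood by the series' description, so brood numbers pair the libraries. Their deviations from group means correlated across genes at 0.0666, 0.197, 0.126 and 0.213 in broods 1 to 4. With males of other broods in the other context the mean correlations were -0.0171, -0.0731, -0.0287 and -0.0793. Deviations from group means sum to 0, so a positive value for brothers makes these means negative. They are no separate evidence for the pairing. Genes are not independent replicates. Protein and promoter features were planned but sequences were not used here.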

Additional observations from a re-analysis of the deposited data

Results flagged for a closer look

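Of 31 groups of 4 fish examined, 8 held a fish whose gap to the nearest of the other 3 was, as a share of the group's range in CPM, above Dixon's 95% critical value. By the construction of that level chance gives about 1 in 20 for normally spread values, which counts this low are not, and a group with 3 fish at 0 is picked out by any single count, which was so for 6 of the 8. The sand male of brood 4 was that fish for ZBTB22 and tshz2 (16.37 CPM, 4 counts each), ZFY1 (8.185 CPM, 2 counts), sp3 and foxp4 (4.09 CPM, 1 count each), and the sand male of brood 2 was for zdhhc22 (5.47 CPM, 1 count). The rock male of brood 3 stood above the other rock males for ZFY1 and foxp4, at 20.3 CPM and 11 counts in each.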

How the results depend on the processing

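Of the 10 testable genes, 2 were called lower in social sand by edgeR, beside 9 of 18 with no low-count filter. With lone males counted as social rock 7 were testable and 6 were called. The count was 0 by limma-voom (9 at an unadjusted p under 0.05), 4 by DESeq2 and 5 with the replicate block of brothers. It ranged from 0 to 4 with 1 library left out. Over all genes, the calls in either direction were 268 of 7733 by edgeR, 29 by limma-voom, 480 by DESeq2 and 507 with the block. They were 627 of 22617 with no filter and 744 of 5724 with lone males counted as rock. With 1 library left out they ranged from 89 of 8024 to 468 of 7182. For lone against social sand the count of 4 became 8 with no filter and 1 by limma-voom, and ranged from 0 to 4 with 1 library left out. Over all genes the calls were 656 of 7733 in the main fit, 940 of 22617 with no filter and 308 of 7733 by limma-voom. They ranged from 133 to 937 with 1 library left out. No alternative called any of the genes for lone against social rock, broods, sires or the interaction, and no gene reversed a called direction. Of 149 lone against rock values recomputed, 16 changed sign and 5 moved by more than their standard error, all 5 on leaving out a lone male. With broods as a block, lone values rest on the brood 4 male alone, since brood 5 has 1 male. Against social rock, ZBTB22, tshz2 and zc3h15 then turned to -0.81, -0.41 and -0.28, with no test. The cause of these shifts was not tested. Depth limits the genes below the count minimum, of which, OZF aside, the 4 sand libraries would together hold 9.15 to 15.25 counts at the rock rate.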
